A study of Homo sapiens with 6 samples.

Results

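Peaks of the transcription factors KLF5 and CEBPB were described at 8 loci that hold 9 genes of epithelial cell junctions and their actomyosin belt: CTNNA1, MYH14, CDH1, CLDN1, CLDN3, CLDN4, CLDN7, TJP1 and OCLN. A peak was counted at a locus when its midpoint lay within 50 kb of the hg19 span of the gene, given to 1 kb, with CLDN3 and CLDN4 sharing 1 span. The peaks were selected on the positions of the authors' peak calls, and the genes were chosen with the signals of these lists known, so counts and strengths at the loci are given as descriptions. Of 74158 deposited peaks, 64 lay at these loci. They comprised 3 of 1510 KLF5 peaks of Calu-3, 10 of 3262 KLF5 peaks of 16HBE14o- and 51 of 69386 CEBPB peaks of Calu-3.

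The peaks came from chromatin immunoprecipitation and sequencing (ChIP-seq) of untreated human bronchial epithelial lines, with 2 samples in each of 3 groups. Calu-3 is a lung adenocarcinoma line and 16HBE14o- an immortalised bronchial line, and both were grown in DMEM with serum. For KLF5, 1 Calu-3 sample was precipitated with a rabbit anti-KLF5 antibody, and the other, like both 16HBE14o- samples, with Santa Cruz sc-398470, so that cell line and antibody cannot be fully told apart. CEBPB was precipitated with Santa Cruz sc-7962 in Calu-3. The authors deposited 1 list per group, made from both samples, so no spread between samples could be given and nothing was tested. Nothing in the labels says whether the 2 samples came from separate cultures. Depth is unknown, and a site without a listed peak may still be bound.

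Adherens junctions join neighbouring epithelial cells through E-cadherin, which catenins tie to actin, and non-muscle myosin tightens the actin belt beneath them. Tight junctions lie above them and seal the space between cells with strands of claudins and occludin, which the scaffold protein ZO-1 holds to the cell cortex. In the airway this seal keeps inhaled matter and surface liquid apart from the tissue. KLF5 is a zinc finger factor of many epithelia that binds GC-rich and CACCC-containing DNA, and CEBPB is a basic leucine zipper factor with roles in inflammation and differentiation.

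The promoter windows of 4 genes are shown because a KLF5 peak had its midpoint within 1 kb of the 5′ end of CTNNA1, CLDN4 and CLDN1, as far as the rounded spans tell, whereas TJP1 had no peak in any list. Each is the RefSeq window on GRCh38.p14 from 250 bases before to 50 after a start, given 5′ to 3′ on the strand of the gene. Capitals mark matches to CCNCNCCC, a KLF-type motif, on either strand, with overlapping matches counted separately. The windows lie at chr5:138753175-138753474 (plus strand) for CTNNA1, chr7:73830746-73831045 (plus strand) for CLDN4, chr3:190322397-190322696 (minus strand) for CLDN1 and chr15:29822419-29822718 (minus strand) for TJP1. Peaks are on hg19 and coordinates were not converted, so the place of a peak inside a window is not given.
CTNNA1: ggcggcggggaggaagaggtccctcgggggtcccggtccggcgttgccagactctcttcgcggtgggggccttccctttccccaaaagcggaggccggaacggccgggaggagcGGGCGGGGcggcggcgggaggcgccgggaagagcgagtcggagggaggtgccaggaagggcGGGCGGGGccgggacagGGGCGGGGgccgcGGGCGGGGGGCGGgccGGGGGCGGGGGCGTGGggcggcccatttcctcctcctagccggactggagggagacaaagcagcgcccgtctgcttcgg
CLDN4: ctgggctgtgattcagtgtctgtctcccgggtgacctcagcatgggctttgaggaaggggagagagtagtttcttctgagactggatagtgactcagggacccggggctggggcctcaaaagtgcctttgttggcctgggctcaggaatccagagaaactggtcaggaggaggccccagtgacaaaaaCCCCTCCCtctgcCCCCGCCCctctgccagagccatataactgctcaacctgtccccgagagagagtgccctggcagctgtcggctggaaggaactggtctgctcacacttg
CLDN1: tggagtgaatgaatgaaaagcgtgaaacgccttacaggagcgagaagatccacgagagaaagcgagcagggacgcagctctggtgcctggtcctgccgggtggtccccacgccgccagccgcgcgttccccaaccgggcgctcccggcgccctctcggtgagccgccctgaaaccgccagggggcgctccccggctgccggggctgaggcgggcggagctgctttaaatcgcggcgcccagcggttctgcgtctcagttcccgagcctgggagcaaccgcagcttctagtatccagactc
TJP1: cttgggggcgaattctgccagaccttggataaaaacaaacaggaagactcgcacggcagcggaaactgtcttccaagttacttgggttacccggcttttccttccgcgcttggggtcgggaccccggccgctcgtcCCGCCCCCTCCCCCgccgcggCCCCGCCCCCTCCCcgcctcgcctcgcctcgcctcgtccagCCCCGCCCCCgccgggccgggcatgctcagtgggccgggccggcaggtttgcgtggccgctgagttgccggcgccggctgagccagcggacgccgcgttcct

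CTNNA1 and TJP1 each have 4 windows in the table, and the one with the most matches is shown. The CTNNA1 window held 8 matches, all as the reverse complement, and its other windows held 3, 0 and 0. Of all 35116 promoter windows of the table, 97.4% held fewer than 8, but the window shown is the highest of 4. In the same order, the CTNNA1 windows were 77.7%, 74.7%, 42.3% and 44.7% G and C. The part of base composition in these counts was not tested. CLDN4 held 2 matches and CLDN1 held 0. The TJP1 window also held 8 matches, and its other windows held 0, 1 and 2. Of the 16 windows found for 8 of the 9 genes, 12 held at least 1 match, compared with 56.2% of all windows. Some windows of CTNNA1 overlap each other, as do those of OCLN, so the 16 are not separate promoters and some matches are counted in more than 1 window. The shorter motif CACCC was found in 11 of the 16 windows and in 59.9% of all windows, and some of its matches overlap those of CCNCNCCC. The C/EBP-type motif TTNNGCAA was found in 0 of the 16 windows and in 10.5% of all windows, on either strand. Such matches are descriptions of letters and not binding sites. CDH1 had no entry. The windows of the other genes held 5 matches in MYH14, 2 in CLDN3, 4 and 7 in CLDN7, and 3 and 4 in OCLN.

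KLF5 peaks were listed at 3 of the 8 loci in Calu-3 and at 5 in 16HBE14o-, while CEBPB peaks were listed at 7. The lists hold 1510, 3262 and 69386 peaks, so these numbers of loci are not compared between the factors. Both lines had KLF5 peaks at CTNNA1 and MYH14. A KLF5 peak was listed in Calu-3 and not in 16HBE14o- at CLDN1, and in 16HBE14o- and not in Calu-3 at CDH1, at CLDN3 and CLDN4, and at CLDN7. TJP1 and OCLN had a KLF5 peak in neither line. Per megabase, the loci held 2.05 Calu-3 KLF5, 6.84 16HBE14o- KLF5 and 34.9 CEBPB peaks, against 0.539, 1.12 and 23.2 over each list, from the first to the last peak of each chromosome, in the same order of lists. The loci are genes chosen with KLF5 peaks in view, so these densities describe the choice.

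**Figure D1:**
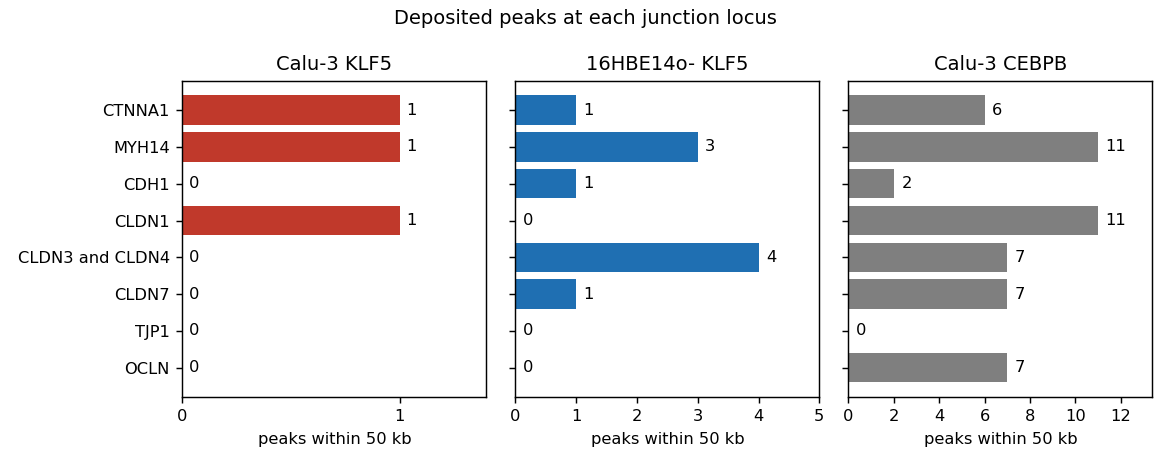
Number of deposited peaks within 50 kb of each junction locus (bars, horizontal axis) in the Calu-3 KLF5, 16HBE14o- KLF5 and Calu-3 CEBPB lists; the axes have different lengths. Calu-3 KLF5 peaks stand at 3 loci with 1 each, 16HBE14o- KLF5 peaks at 5 loci with 1 to 4 each, and CEBPB peaks at every locus but TJP1.

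CTNNA1 encodes alpha-catenin, which links the cadherin and beta-catenin complex to actin, and its locus (chr5, 138089 to 138271 kb) held the highest KLF5 peak of the 16HBE14o- list. The Calu-3 KLF5 peak, at chr5:138088900-138089031, had a signal of 106 and ranked 8 of 1510. The 16HBE14o- KLF5 peak, at chr5:138088859-138089128, had a signal of 201 and ranked 1 of 3262. Signals have no stated normalization and are compared within a list only, as percentiles of 100 for the highest peak. Both midpoints lay within 0.0345 kb of the 5′ edge of the span, and the summits were 19 bp apart. The Calu-3 peak lay wholly inside the 16HBE14o- peak, over 132 bp. No other KLF5 peak of either line was listed at the locus, and the next summit of the same list was 210069 bp away in Calu-3 and 934111 bp away in 16HBE14o-.

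Over both CTNNA1 peaks lay a CEBPB peak of Calu-3, at chr5:138088878-138089080, with a signal of 2.38 at percentile 5.69 and a q-value of 0.413. It was thus among the weakest of its list, at a site near the top of both KLF5 lists. The strongest of the other 5 CEBPB peaks lay upstream at chr5:138060185-138060509 (percentile 88.5). The next, at percentile 83.2, lay 41.2 kb upstream, and 1 at percentile 53.6 lay inside the gene, 173 kb from the 5′ edge.

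MYH14 encodes the heavy chain of non-muscle myosin IIC, a motor of the junctional actin belt, and its locus (chr19, 50706 to 50814 kb) held the second highest KLF5 peak of 16HBE14o-. In Calu-3 the peak at chr19:50718442-50718721 had a signal of 102 and ranked 10 of 1510. In 16HBE14o- the peak at chr19:50718451-50718714 had a signal of 187 and ranked 2 of 3262. The summits were 24 bp apart and lay inside the gene, with midpoints 12.6 kb from its 5′ edge, unlike the pair at CTNNA1. A CEBPB peak of Calu-3 stood beside this site without touching it, at chr19:50718020-50718187, with a gap of 254 bp to the Calu-3 KLF5 peak, a signal of 3.95 and percentile 77.4.

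Another 2 KLF5 peaks of the MYH14 locus were listed in 16HBE14o- and not in Calu-3. The first, at chr19:50708551-50708894, lay 2.72 kb inside the gene and had a signal of 36.5 at percentile 73.3. It was overlapped by a CEBPB peak of percentile 0.256, the lowest of the 51 at the loci. The other, at chr19:50835504-50835847, lay 21.7 kb beyond the 3′ edge and had a signal of 25.5 at percentile 25.1. The 11 CEBPB peaks of MYH14 ran from percentile 0.256 to 89.8, the highest at chr19:50684493-50684661 upstream of the gene, and had a median of 36.3. After it and the peak beside the shared KLF5 site came 1 that lay 11.4 kb upstream, at percentile 76.9.

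CDH1 encodes E-cadherin, the adhesion receptor of adherens junctions, and its locus (chr16, 68771 to 68870 kb) had no Calu-3 KLF5 peak. The nearest in that line lay 2459 kb from the 5′ edge. In 16HBE14o-, KLF5 had 1 peak, at chr16:68741578-68741921, 29.3 kb upstream of CDH1 on the side of the neighbouring cadherin gene CDH3. That KLF5 peak had a signal of 36.4 at percentile 73.0 and the top score of 1000, which 33.2% of its list has. The 2 CEBPB peaks of Calu-3 were both inside the gene and both strong, at percentile 92.4 (signal 6.25, chr16:68789523-68789691) and 95.6 (signal 8.31, chr16:68824206-68824393). The nearer of them had its summit 47854 bp from that of KLF5, the largest such distance among the KLF5 peaks of the loci.

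**Figure D2:**
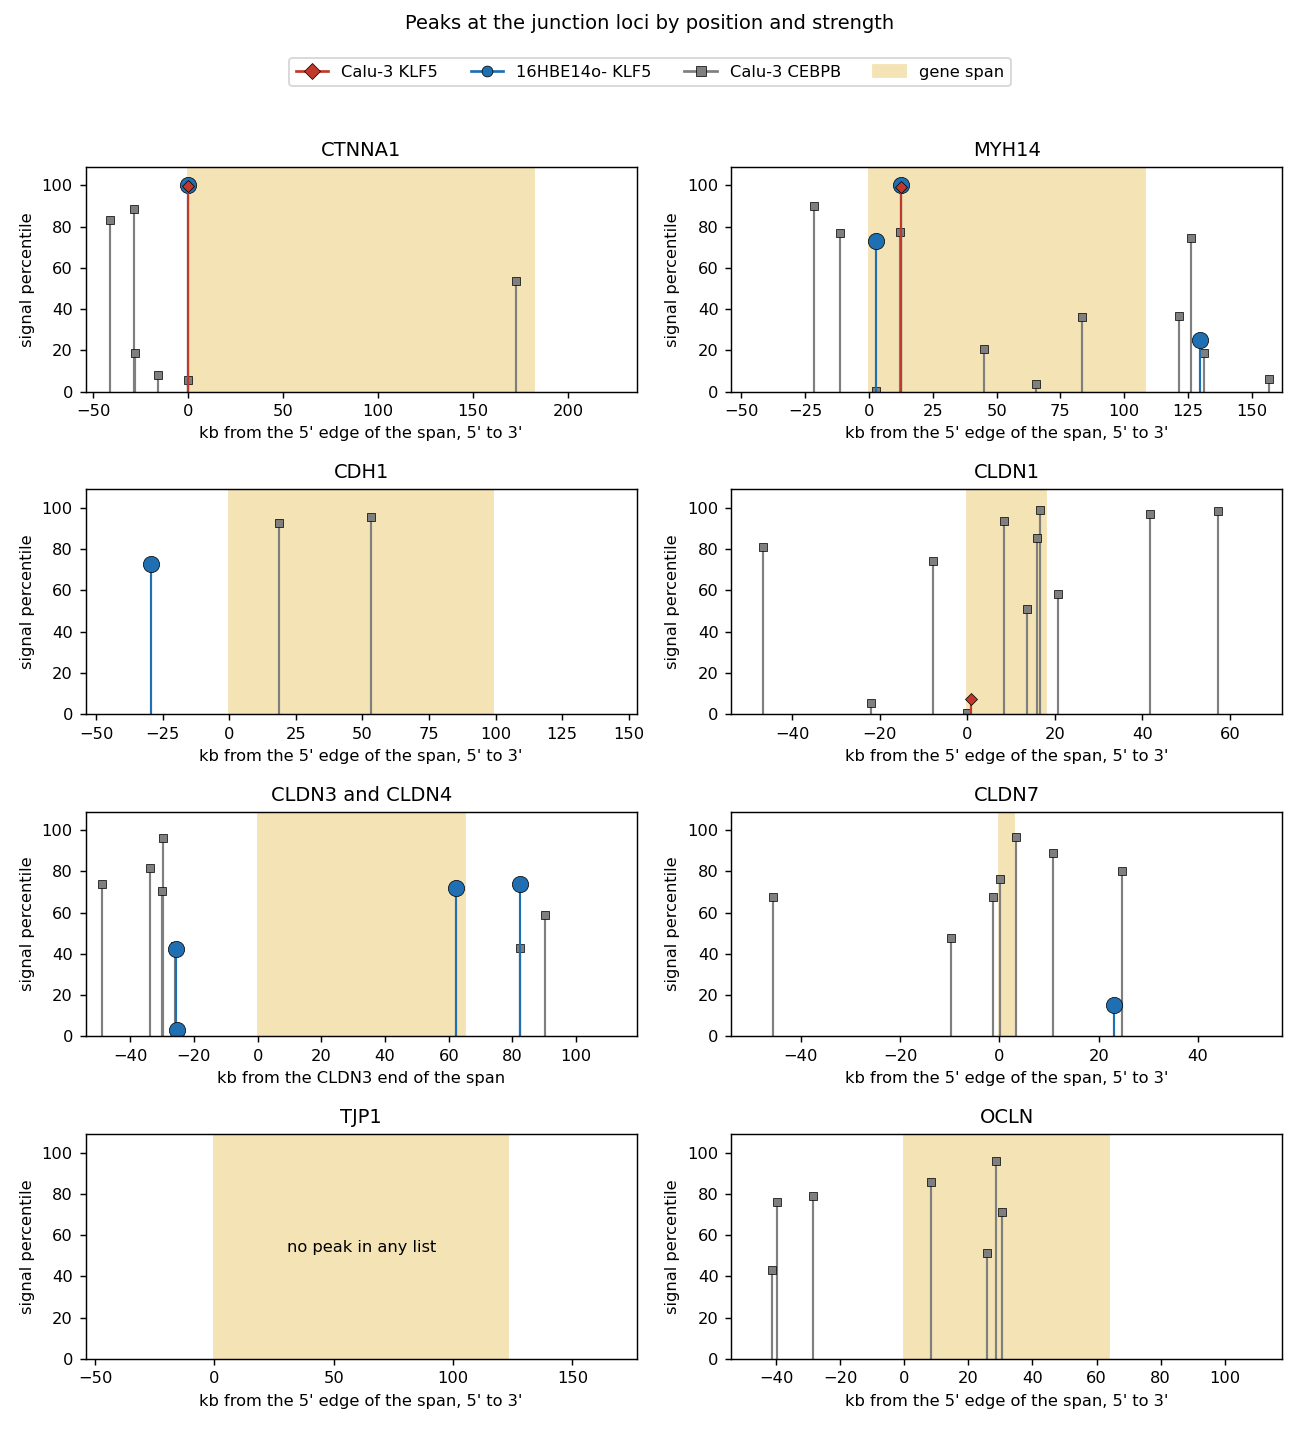
Position and strength of every peak at the 8 loci. The horizontal axis gives kb from the 5′ edge of the gene span (from the CLDN3 end for CLDN3 and CLDN4), shading marks the span, and the height of each mark is the signal percentile within its own list (Calu-3 KLF5 diamonds, 16HBE14o- KLF5 circles, Calu-3 CEBPB squares). The paired KLF5 peaks at the top of the CTNNA1 and MYH14 panels stand above percentile 99, and the TJP1 panel holds no mark.

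Claudins form the strands of tight junctions, and claudin-1, encoded by CLDN1, is a sealing member of the family. CLDN1 (chr3, 190023 to 190041 kb) was the 1 locus with a KLF5 peak in Calu-3 and none in 16HBE14o-. The Calu-3 peak, at chr3:190040139-190040418, lay 0.722 kb inside the 5′ edge of the span, which is given to 1 kb. It was weak, with a signal of 18.3 at percentile 7.22, a score of 542 against a list minimum of 540, and a q-value of 0.133. The nearest 16HBE14o- KLF5 summit was 377835 bp away.

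CEBPB was listed densely over CLDN1, with 11 peaks, or 93.2 per megabase, the highest density of the 8 loci. The strongest, at chr3:190024232-190024615, had a signal of 13.6 at percentile 98.7 and lay 16.6 kb from the 5′ edge, toward the 3′ end of the gene. Beyond the 3′ edge lay the next, at chr3:189983537-189983786 (signal 12.7, percentile 98.5) and chr3:189999132-189999375 (signal 9.55, percentile 96.8). At the 5′ edge of the span, the CEBPB peak at chr3:190041020-190041144 was at percentile 0.392. Its gap to the Calu-3 KLF5 peak was 601 bp. RefSeq gives CLDN1 a length of 16740 bp, shorter than the 18 kb span. Which of these peaks lies nearer the 5′ end of the gene was therefore not determined. CLDN1 lies on the distal long arm of chromosome 3, beyond 150 Mb, which held 10.3% of all Calu-3 KLF5 peaks, 0.797% of 16HBE14o- KLF5 peaks and 3.48% of CEBPB peaks. The part of this regional difference in the CLDN1 counts was not tested.

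CLDN3 and CLDN4 encode claudins that tighten the paracellular seal, and their shared span (chr7, 73183 to 73248 kb) held 0 Calu-3 and 4 16HBE14o- KLF5 peaks. In Calu-3 the nearest KLF5 peak was 3920 kb beyond the CLDN4 end. The 16HBE14o- peak at chr7:73245155-73245498, with a signal of 35.9 at percentile 71.8, had its midpoint 2.67 kb before the CLDN4 end of the span. CLDN4 is 1.70 kb long in RefSeq, which puts that midpoint 0.979 kb from its 5′ end, within the 1 kb rounding of the span. The nearest CEBPB summit was 20129 bp away.

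Beyond the CLDN4 end, the 16HBE14o- KLF5 peak at chr7:73265149-73265492 had the highest signal of the locus (36.8, percentile 74.1) and was overlapped over 134 bp by a Calu-3 CEBPB peak of percentile 42.9. On the CLDN3 side, 25.5 kb and 25.3 kb beyond the span, the entries at chr7:73157347-73157690 (signal 28.5, percentile 42.3) and chr7:73157546-73157889 (signal 10.6, percentile 2.88) overlapped each other by 145 bp and make 1 region when merged. A CEBPB peak at percentile 43.8 lay 32 bp from the first of them. The strongest of the 7 CEBPB peaks, at chr7:73153243-73153448 (signal 9.09, percentile 96.4), lay 3898 bp from that entry. The next in signal, at percentiles 81.8 and 74.1, lay farther out on the same side.

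CLDN7 encodes claudin-7, found in tight junctions and along the lateral membrane, and had 0 Calu-3 KLF5 peaks and 1 weak 16HBE14o- KLF5 peak. That peak, at chr17:7142831-7143174, lay 20.0 kb beyond the 3′ edge of the gene (chr17, 7163 to 7166 kb) and had a signal of 22.6 at percentile 15.4 and a q-value of 0.0782. The nearest Calu-3 KLF5 summit was 334065 bp away. CEBPB had 7 peaks, of which 1 (chr17:7165693-7166100, signal 3.88, percentile 76.3) lay at the 5′ edge and the strongest (chr17:7162503-7162758, signal 9.34, percentile 96.6) lay 0.370 kb beyond the 3′ edge. The next, at percentiles 89.0 and 80.2, lay farther downstream, the weaker of them 1719 bp from the KLF5 summit. The places at the 5′ and 3′ edges are within the 1 kb rounding of the span. RefSeq gives CLDN7 a length of 3311 bp, longer than the 3 kb span. ELP5 and SLC2A4 are the neighbouring genes, and peaks were not assigned to genes.

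OCLN encodes occludin, a membrane protein of tight junction strands, and was listed with CEBPB alone (chr5, 68788 to 68852 kb). The nearest KLF5 peak to its 5′ edge lay 5275 kb away in Calu-3 and 653 kb away in 16HBE14o-. Its 7 CEBPB peaks ran from percentile 42.9 to 95.9, and each had a q-value of 0.05 or less. The strongest, at chr5:68816623-68816799 (signal 8.53), lay inside the gene 28.7 kb from the 5′ edge, and the second, at percentile 85.9, lay 8.28 kb from it. The next was upstream, at percentile 78.7.

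TJP1 encodes ZO-1, and its locus (chr15, 29992 to 30115 kb) held 0 peaks in each list. The nearest KLF5 peak to its 5′ edge was 1574 kb away in Calu-3 and 1393 kb away in 16HBE14o-, and the nearest CEBPB peak was 1169 kb away. The gene lay in a stretch of 3825 kb without a listed CEBPB peak, the 12th longest of 69362 such gaps, whose median was 21.2 kb. RefSeq gives TJP1 a length of 269683 bp, longer than the span used, and the nearest listed peak lay farther away than that length. Whether the stretch could be mapped, and whether the lists used here cover it in full, was not tested, so the 0 at TJP1 says only that no peak is listed.

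Between the lines, 2 of 3 Calu-3 KLF5 peaks of the loci overlapped a 16HBE14o- KLF5 peak by at least 1 bp (66.7%, exact 95% interval 9.43 to 99.2), compared with 23.6% of the whole Calu-3 list. In the other direction 2 of 10 16HBE14o- peaks were shared (20.0%, 2.52 to 55.6), compared with 11.3% of that list. The shared sites are those at CTNNA1 and MYH14, and the genes were chosen with these sites known, so nothing is read from these shares. Without these 2 loci, 0 of 1 Calu-3 and 0 of 6 16HBE14o- KLF5 peaks were shared. Intervals cover counting error only.

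Strength differed widely among the KLF5 peaks. In Calu-3 the percentiles were 99.5 at CTNNA1, 99.4 at MYH14 and 7.22 at CLDN1. In 16HBE14o- 2 peaks were above percentile 99, 4 lay between 71.8 and 74.1, and 4 lay between 2.88 and 42.3. The 4 in the middle were the peaks at the CLDN4 end, beyond CLDN4, upstream of CDH1 and near the MYH14 start. The median over the 10 was 72.4, where the list has 50 by construction. It was 42.3 over the 13 peaks within 100 kb, below the list median, and 57.1 without CTNNA1 and MYH14.

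**Figure D3:**
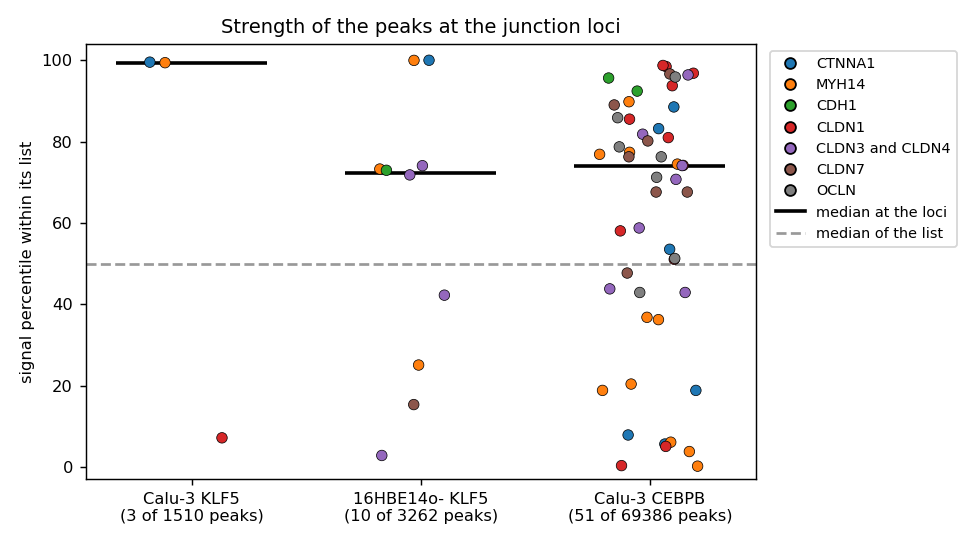
Signal percentile (vertical axis) of each peak at the junction loci within its own list, coloured by locus; the black bars are medians at the loci and the dashed line is the median of each whole list. The bars stand at 99.4 for 3 Calu-3 KLF5 peaks, 72.4 for 10 16HBE14o- KLF5 peaks and 74.1 for 51 CEBPB peaks, and each list also has peaks below percentile 10.

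Against CEBPB, 1 of 3 Calu-3 KLF5 peaks of the loci had an overlapping CEBPB peak (33.3%, 0.840 to 90.6), compared with 43.7% of the whole Calu-3 KLF5 list. Of the 16HBE14o- KLF5 peaks, 3 of 10 had one (30.0%, 6.67 to 65.2), compared with 22.4% of that list. With 3 and 10 peaks the intervals are wide, and nothing is read from these shares. From summit to summit, the nearest CEBPB peak was 70 to 836 bp away for the 3 Calu-3 peaks, and within 1 kb for 6 of the 10 16HBE14o- peaks. Over the whole lists, the share within 1 kb was 50.4% for KLF5 in Calu-3 and 30.7% for KLF5 in 16HBE14o-. The medians were 495 bp at the loci and 925 bp over the list for Calu-3, and 505 bp and 5936 bp for 16HBE14o-. The 16HBE14o- distances of 291 and 490 bp, on the CLDN3 side, come from entries that overlap each other by 145 bp. The loci also held more CEBPB peaks per megabase than the list, 34.9 against 23.2, so nothing is read from these distances. CEBPB was not measured in 16HBE14o- in the samples used here.

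**Figure D4:**
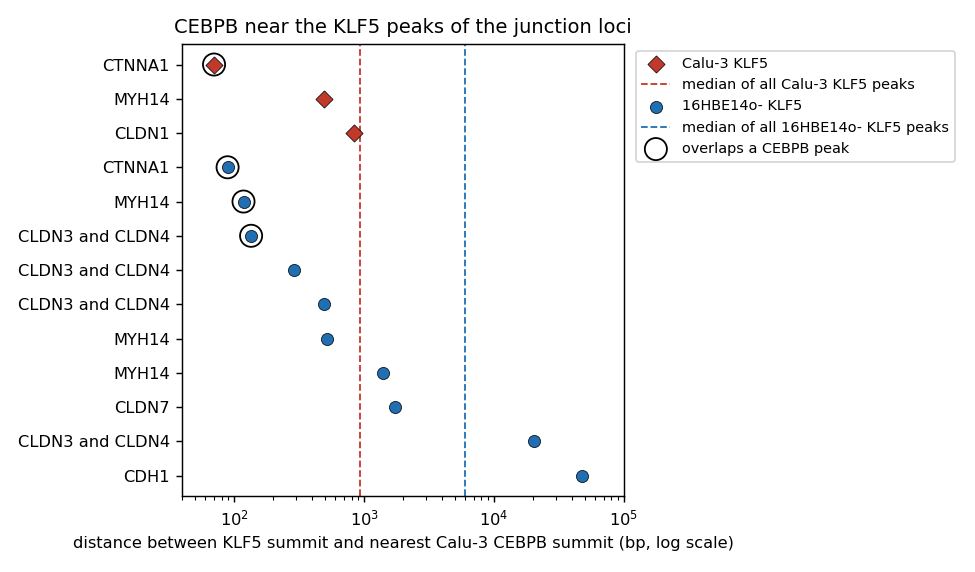
Distance from each KLF5 summit at the junction loci to the nearest Calu-3 CEBPB summit (horizontal axis, log scale, bp), for 3 Calu-3 peaks (diamonds) and 10 16HBE14o- peaks (circles); rings mark overlap and dashed lines the medians of the whole KLF5 lists. The 3 Calu-3 peaks lie at 70, 495 and 836 bp, and the 16HBE14o- peaks run from 89 bp at CTNNA1 to 47854 bp at CDH1.

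Of the 51 CEBPB peaks of the loci, 3 overlapped a KLF5 peak of either line (5.88%, 1.23 to 16.2), compared with 1.76% of the CEBPB list. The genes were chosen with KLF5 peaks in view, so nothing is read from this share. The 3 were the peaks at CTNNA1, in MYH14 and beyond CLDN4, at percentiles 5.69, 0.256 and 42.9. All 3 overlapped a 16HBE14o- KLF5 peak, and only the one at CTNNA1 also overlapped a Calu-3 KLF5 peak. The median of the 3, 5.69, stands beside 74.3 for the other 48 at the loci. It was 65.3 for the 712 CEBPB peaks of the list that overlap 16HBE14o- KLF5, and 85.1 for all 1224 that overlap KLF5 of either line. Of those 1224, 27.0% were below percentile 50, and the peaks over 16HBE14o- KLF5 were lower (median 65.3) than those over Calu-3 KLF5 (median 96.3). Over all 51 CEBPB peaks, 9 were at percentile 90 or above (17.6%, list 10.0%) and 36 had a q-value of 0.05 or less (70.6%, list 46.3%). Strength differed by locus, with median percentiles of 36.2 at CTNNA1 and 36.3 at MYH14, below the list median, and above it at the other 5 loci with CEBPB peaks, the lowest being 70.7 at CLDN3 and CLDN4. By gene, those 9 were 4 at CLDN1, both peaks at CDH1, and 1 each near CLDN3, at CLDN7 and in OCLN, while CTNNA1 and MYH14 had 0.

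By position, a midpoint inside a gene span was found for 2 of 3 KLF5 peaks in Calu-3, for 3 of 10 in 16HBE14o-, and for 17 of the 51 CEBPB peaks. The span made up 3 of 103 kb of the window at CLDN7 and 182 of 282 kb at CTNNA1, so nothing is read from these counts. The CTNNA1 KLF5 peaks counted as outside by 0.0345 kb in Calu-3 and 0.0065 kb in 16HBE14o-, less than the 1 kb rounding of the span. Within 1 kb of the 5′ edge of a span lay 2 Calu-3 KLF5, 1 16HBE14o- KLF5 and 3 CEBPB peaks, at CTNNA1, CLDN1 and CLDN7, not counting CLDN3 and CLDN4, whose 5′ ends are not edges of the span. Near the 50 kb limit, the member farthest from a span was a CEBPB peak 48.8 kb beyond MYH14 (signal 2.41, percentile 6.15), and the nearest peak left out was a CEBPB peak 50.7 kb from CTNNA1 (signal 2.44, percentile 6.76). For 16HBE14o- KLF5 the values were 29.3 kb at CDH1 (signal 36.4, percentile 73.0) and 73.4 kb at MYH14 (signal 23.6, percentile 18.0). For Calu-3 KLF5 they were 0.0345 kb at CTNNA1 (signal 106, percentile 99.5) and 210 kb at the same gene (signal 42.4, percentile 87.6).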

How the data were processed

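ChIP-seq peaks of KLF5 in Calu-3 and 16HBE14o- and of CEBPB in Calu-3 were used as deposited, 1 list per group of 2 samples, made from both samples per the series' design text. The lists are on hg19 and named as IDR (irreproducible discovery rate) peaks, per the file headers; the aligner, caller and control are not given in the sources used here. The deposited columns used were the authors' signal, score and −log10 q-value, here turned into q-values; the p-value column of the KLF5 lists holds -1 throughout. The normalization of the signal is not stated.

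Starts were made 1-based, midpoints were compared with the spans of the 9 genes, and overlap meant at least 1 bp in common. Shares have exact (Clopper-Pearson) 95% intervals. Percentiles are ranks of signal within a list. No test was run, because each group is 1 list. The overlap count was tested on simulated data. The genes, motifs, lists and alternatives were chosen with earlier results of these data known. The rule for named items took all 9 genes, every KLF5 peak, and of the CEBPB peaks those over KLF5 and the 3 of highest signal per locus; the CEBPB peaks next to KLF5 peaks at MYH14, CLDN1 and CLDN3 and the one at the CLDN7 5′ edge were named after their values were seen. Other junction genes, planned as a comparison, were not analysed here, because no hg19 annotation was used. Gene names of neighbours, lengths and promoter sequences came from RefSeq tables on GRCh38.p14. Python 3.11.15, numpy 2.4.6, pandas 2.3.3, scipy 1.17.1 and matplotlib 3.10.9 were used.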

Additional observations from a re-analysis of the deposited data

How the results depend on the processing

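No paired analysis was possible because each group is 1 deposited list made from both samples, and leaving out a sample was not possible for the same reason. Of 68 recomputed values, 18 moved and 50 did not by the tolerance used (a count within 1.5 times, a share or median within its 95% interval or, for the median of 3 values, within 10 points). That tolerance is wide for 10 peaks: the 16HBE14o- KLF5 median percentile, 72.4, was 42.3 with a window of 100 kb, on the other side of the list median. The 16HBE14o- share overlapping Calu-3 KLF5, 20.0%, was 50% with a window of 10 kb and 33.3% with lists of equal length. The share with CEBPB, 30.0%, was 10.0% by summits within 100 bp, 12.5% with q-values of 0.05 or less, 50% with a window of 10 kb and 16.7% without CTNNA1 and MYH14. The number of 16HBE14o- KLF5 peaks, 10, was 4 with a window of 10 kb, 3 inside the spans alone, 6 with lists of equal length, 6 above the median signal of the list and 6 without CTNNA1 and MYH14. The number of CEBPB peaks, 51, was 25 with a window of 10 kb, 17 inside the spans and 2 with lists of equal length. Without CTNNA1 and MYH14, a choice made after seeing the data, the Calu-3 KLF5 list kept 1 peak, its median percentile was 7.22, and the shares of shared peaks in both directions and of Calu-3 KLF5 peaks with CEBPB were 0. With q-values of 0.05 or less, 100% of the 2 remaining Calu-3 KLF5 peaks were shared and 0 had CEBPB. With lists of equal length, 0 KLF5 peaks of either line at the loci had CEBPB. That setting keeps the 1510 strongest of 69386 CEBPB peaks. It drops those over KLF5 at the loci, at percentiles 5.69, 0.256 and 42.9, so the 0 was fixed by the cut. Ranked by q-value, the Calu-3 KLF5 median was 78.6, where the CTNNA1 and MYH14 peaks tie with the same q-value of 0.000751. Ties also stand in 16HBE14o-, where the CTNNA1 peak, ranked 1 by signal, was at percentile 83.9 by q-value. The peak at the CLDN4 end, at percentile 71.8 by signal, was there too. Counts of 3 and 10 peaks at unknown depth limit every share.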

Other observations

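Narrow entries were more frequent among the strongest KLF5 peaks than over the lists, where nearly all entries share 1 width. It was 280 bp in Calu-3 (99.3% of peaks) and 344 bp in 16HBE14o- (99.4%). At the junction loci the exceptions were the CTNNA1 peak of Calu-3, at 132 bp, and the 16HBE14o- peaks at CTNNA1, at 270 bp, and MYH14, at 264 bp. All 3 are among the 10 strongest of their list. Of those 10, 6 in Calu-3 and all 10 in 16HBE14o- were narrower than the shared width. Of the 50 strongest, 9 in Calu-3 and 18 in 16HBE14o- were narrower, the latter being every narrower entry of that list. Over the whole lists, 0.662% of 1510 entries in Calu-3 and 0.552% of 3262 in 16HBE14o- were narrower. The Calu-3 MYH14 peak, ranked 10, had the shared 280 bp. The link of width with strength was noticed after the values were seen and was not tested.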
